A study of Homo sapiens with 12 samples.

Results

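Cytosolic ribosomal protein genes encode the protein subunits of the ribosome that translates nuclear messages. They were taken as every symbol of the expression table made of RPL or RPS and a number, with an optional A, X or L, together with RPLP0, RPLP1, RPLP2 and RPSA. The rule found 86 genes of 31654 symbols, 52 of the large subunit and 34 of the small subunit. Of these, 77 were core subunit genes and 9 had an L after the number, the form used for paralogs and duplicate copies. Expression had been measured by RNA sequencing of bulk cultures of 4 human glioblastoma cell lines, with 3 libraries each. U251TR and U87TR are temozolomide-resistant sublines. Each was derived in culture from its parent, U251MG and U87MG, by repeated exposure to rising concentrations of temozolomide, an alkylating drug used against glioblastoma. All lines were grown in the same serum-containing medium, and the labels name no drug in the culture at harvest. Each parent had 1 resistant subline, so resistance and any other feature of that subline cannot be told apart. In bulk RNA, fewer cells of a kind and less RNA per cell cannot be told apart.

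The ribosome is built in the nucleolus from ribosomal RNA and a copy of nearly every subunit protein, with the surplus protein degraded. Most messages for ribosomal proteins start with a cytosine and an unbroken run of pyrimidines, the terminal oligopyrimidine or TOP motif. The mTORC1 kinase and the RNA-binding protein LARP1 act through this motif to set their translation and stability, and MYC raises transcription of the family. Some members have further roles outside the ribosome: RPL5 and RPL11 bind MDM2, the ligase that marks p53 for degradation, when ribosome assembly fails.

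The starts of the members were read from RefSeq promoters of assembly GRCh38.p14, in which 66 of the 86 members were matched. A TOP start, defined here as C at the annotated start followed by at least 4 pyrimidines (C or T) on the gene's strand, was present in 43 of the 66 (65.2%), against 4.04% of 27305 RefSeq promoters searched in the same way. Among motifs searched on both strands of the 300 bases around the start, CCGGAAG was in 34.8% of members and 10.7% of all promoters, ATGGCGG in 18.2% and 5.72%, TATAAA in 9.09% and 12%, and CACGTG in 6.06% and 7.43% (a promoter with any match counted once, each motif scored on its own even where matches overlap). The windows below run from 30 bases before the start to 30 bases from it onwards, 5′ to 3′, with capitals for the unbroken pyrimidine run that begins at the start. The windows of RPL10, RPL36A, RPL39 and RPS4X are shown because these X-linked genes fell furthest in U251TR among the members reported one by one. The others set 3 paralogs beside the gene each resembles, since those pairs differed in level between the lines.
RPL10, chrX:154398035-154398094, plus strand: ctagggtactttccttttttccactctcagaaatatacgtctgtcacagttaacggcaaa
RPS4X, chrX:72277219-72277278, minus strand: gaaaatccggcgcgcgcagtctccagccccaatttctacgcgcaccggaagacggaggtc
RPL36A, chrX:101390981-101391040, plus strand: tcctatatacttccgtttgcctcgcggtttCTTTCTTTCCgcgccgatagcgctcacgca
RPL39, chrX:119791601-119791660, minus strand: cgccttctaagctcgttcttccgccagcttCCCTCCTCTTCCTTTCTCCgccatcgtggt
RPL22, chr1:6199566-6199625, minus strand: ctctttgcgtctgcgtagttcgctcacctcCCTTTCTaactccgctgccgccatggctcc
RPL22L1, chr3:170870166-170870225, minus strand: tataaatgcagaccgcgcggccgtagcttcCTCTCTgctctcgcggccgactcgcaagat
RPS27, chr1:153990732-153990791, plus strand: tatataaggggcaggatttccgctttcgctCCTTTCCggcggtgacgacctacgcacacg
RPS27L, chr15:63157448-63157507, minus strand: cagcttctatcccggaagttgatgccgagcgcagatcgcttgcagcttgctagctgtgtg
RPL26, chr17:8383164-8383223, minus strand: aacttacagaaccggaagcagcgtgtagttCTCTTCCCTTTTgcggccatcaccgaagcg
RPL26L1, chr5:172958699-172958758, plus strand: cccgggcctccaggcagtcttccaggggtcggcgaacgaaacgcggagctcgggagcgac
RPL39 carried a run of 19 pyrimidines, RPL26 of 12 and RPL36A of 10, and RPL10 and RPS4X had no TOP start at the annotated position. RPL22 and its paralog RPL22L1 both opened with a TOP start. RPS27 did and RPS27L did not, and RPL26 did and RPL26L1 did not.

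Values were FPKM, fragment counts scaled for transcript length and library size, which allow levels of different genes to be set side by side. The 12 libraries summed to between 696371 and 786642 FPKM. Every glioma library expressed VIM and NES, which mark these lines, at a summed level of 818 to 898 FPKM in U251TR, 1476 to 2703 in U251MG, 3843 to 4293 in U87TR and 4559 to 5382 in U87MG. PTPRC, ITGAM and CD14 of the 5 leukocyte and microglia markers used averaged under 1 FPKM in every group, as did the lymphocyte markers CD3E, CD3D and MS4A1. The 3 endothelial markers VWF, CDH5 and CLDN5 summed to 11.1 to 12.2 FPKM in U251TR, 6.18 to 8.77 in U251MG and at most 0.41 in both U87 lines. The summed leukocyte and microglia list stood at 3.67 to 7.04 FPKM in U251TR, 2.31 to 2.92 in U251MG, 330 to 358 in U87TR and 201 to 221 in U87MG, where CD68 and CSF1R were the markers present. The 7 astrocyte markers summed to 442 to 478 FPKM in U251TR, 286 to 466 in U251MG, 89.96 to 112 in U87TR and 81.6 to 120 in U87MG, with AQP4, SLC1A2 and ALDH1L1 under 1 FPKM in all groups. Replicate 2 of U251MG stood apart from its group, with rank correlations over all genes of 0.977 and 0.978 against 0.993 between replicates 1 and 3, and the counts and several values that it moved are given with and without it. All rankings of members below are over the 79 tested members reported one by one, while counts cover all 83.

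The members were among the abundant messages of each line. The median tested member stood at 1054 FPKM in U251TR, 1489 in U251MG, 1112 in U87TR and 1126 in U87MG, against 9.37 to 11.96 FPKM for the median tested gene. In U251TR 44 members averaged 1000 FPKM or more, against 63 in U251MG, and the numbers were 47 in U87TR and 49 in U87MG. As listed, RPS27, a small-subunit protein, was the highest core member in all 4 lines. It had 3867 ± 336 FPKM in U251TR, 5057 ± 441 in U251MG, 5568 ± 293 in U87TR and 4748 ± 263 in U87MG (SD, n = 3 each). That place depends on how reads shared with pseudogenes are assigned. RPL41 and its pseudogene RPL41P1 together had 3660 to 4318 FPKM in U251TR, 6637 to 7148 in U251MG, 6601 to 7177 in U87TR and 6931 to 7289 in U87MG. The lowest core member was RPS26 in both U251 lines (300 FPKM in U251TR and 387 in U251MG), and RPL22 in both U87 lines (235 FPKM in U87TR and 234 in U87MG). Subunit proteins that enter the ribosome in equal numbers were thus encoded by messages whose listed levels spanned over an order of magnitude in each line. The order of the members was close in U87TR and U87MG (Spearman's rho across 83 members 0.951), less so in U251TR and U251MG (0.873) and least in U87MG and U251MG (0.705); genes are not independent replicates, and no p is given.

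As a share of the summed FPKM, the members made up 12.7%, 12.8% and 13.8% in the 3 U251TR libraries, against 17.4%, 18.1% and 18.3% in U251MG. All U251TR libraries lay below all U251MG libraries. In U87TR the shares were 13.3%, 14.2% and 14.9%, against 14.3%, 14.0% and 13.4% in U87MG, and these libraries overlapped. Means were 13.1% ± 0.612 in U251TR, 17.9% ± 0.422 in U251MG, 14.1% ± 0.842 in U87TR and 13.9% ± 0.460 in U87MG (SD, n = 3 each). U251MG was therefore the line that stood apart, with the highest share in every library. The large subunit held 7.30% in U251TR and 10.2% in U251MG, and the small subunit 5.79% in U251TR and 7.71% in U251MG. The shares of 3 other gene groups did not show the same split. The 73 mitochondrial ribosomal protein genes, which serve the separate ribosome of the mitochondrion, held 0.670% ± 0.0287 in U251TR and 0.681% ± 0.0140 in U251MG (SD, n = 3 each). The 45 tested nuclear subunits of oxidative phosphorylation held 1.64% ± 0.0873 in U251TR and 1.59% ± 0.113 in U251MG. Transcripts of the mitochondrial genome held 7.07% ± 0.379 in U251TR and 7.77% ± 0.477 in U251MG. The U251TR and U251MG libraries overlapped in all 3 groups. Pseudogene rows of the members did split, with 0.457%, 0.484% and 0.519% in U251TR, against 0.819%, 0.736% and 0.739% in U251MG. A fall in U251TR was also not limited to the members, as 21 of 26 other genes with TOP messages, described below, fell there.

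**Figure D1:**
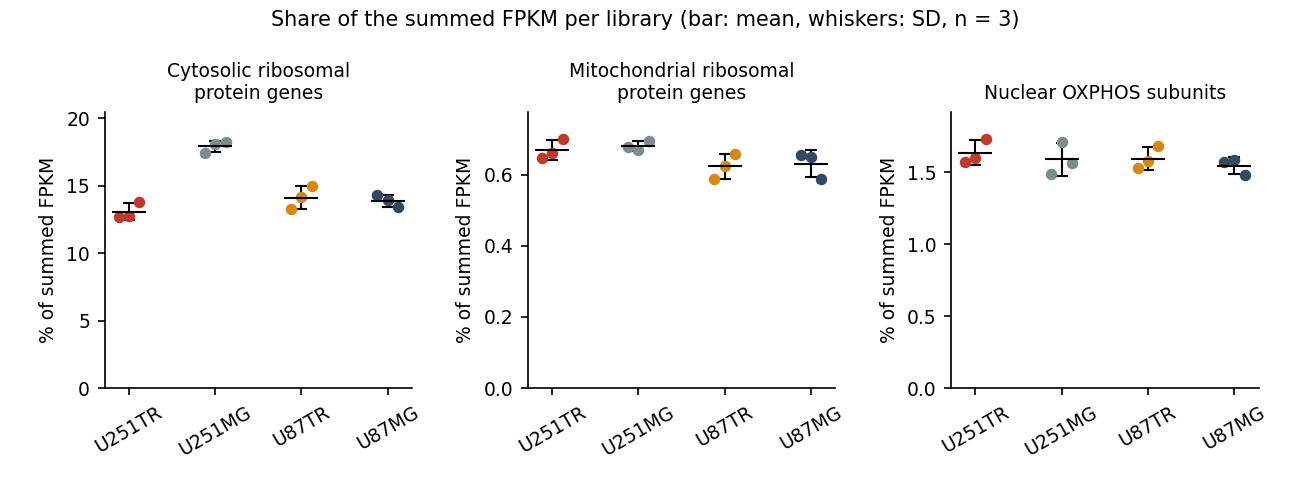
Percent of the summed FPKM (vertical axis, from 0) held by cytosolic ribosomal protein genes, mitochondrial ribosomal protein genes and nuclear OXPHOS subunits in each of the 12 libraries; points are libraries, bars the mean of 3 and whiskers the SD. Cytosolic ribosomal protein genes held 12.7% to 13.8% in U251TR and 17.4% to 18.3% in U251MG, while the U87TR and U87MG libraries overlapped.

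The comparison of U251TR with U251MG asked how the family differs between a resistant line and its parent. Of 83 members that could be tested, 67 fell and 2 rose in U251TR (limma, adjusted p under 0.05), where 19.6% of all 15449 genes tested fell and 33.6% rose. The median change of the members was -0.58 on the log2(FPKM + 1) scale, against 0.10 for all genes tested. Of the 50 tested large-subunit members 41 fell, and of the 33 small-subunit members 26 fell. All 3 U251TR libraries lay below all 3 U251MG libraries for 69 members, and 22.6% of all tested genes showed the same separation. Without replicate 2 of U251MG the numbers were 68 lower and 2 higher. With quantile normalization, which forces the same distribution on every library, they were 47 lower and 10 higher, and dividing each library by its median member left 26 lower and 22 higher. Over all genes, 63.2% of calls were higher as deposited, 51.3% with median-of-ratios factors, 50.5% with quantile normalization and 91.0% after dividing by the median member. That last scaling moved the median of all genes to 0.54, and rescaling to TPM moved it to 0.20.

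The 4 members encoded on the X chromosome, RPL10, RPL36A, RPL39 and RPS4X, were the 4 largest falls in U251TR among the 79 tested members reported one by one. The grouping by chromosome was made after the values were seen. RPL10, a large-subunit protein that joins late in assembly, had 758, 796 and 894 FPKM in U251TR, against 2908, 2353 and 2709 in U251MG. It fell 3.25-fold (log2 fold change -1.70, SE 0.09, adjusted p = 2.03e-08). RPL36A, a large-subunit protein, had 1022, 922 and 993 FPKM in U251TR, against 2910, 3253 and 3046 in U251MG. It fell 3.13-fold (log2 fold change -1.65, SE 0.07, adjusted p = 4.08e-09). The U251TR and U251MG libraries of both genes were far apart.

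RPL39, a very short protein that lines the tunnel through which the new peptide leaves the ribosome, had 1089, 1126 and 1215 FPKM in U251TR, against 3144, 3400 and 3472 in U251MG. It fell 2.92-fold (log2 fold change -1.55, SE 0.07, adjusted p = 5.56e-09). RPS4X, a small-subunit protein whose near-equivalent RPS4Y1 lies on the Y chromosome, had 296, 324 and 387 FPKM in U251TR, against 921, 835 and 834 in U251MG. It fell 2.58-fold (log2 fold change -1.37, SE 0.12, adjusted p = 1.30e-06). No library of either line came near the other's range for these genes.

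The ratio of the mean X-linked member to the mean autosomal core member, both in FPKM, was 0.682, 0.655 and 0.657 in U251TR, against 1.43, 1.39 and 1.43 in U251MG. It was 1.13, 1.09 and 1.06 in U87TR, against 1.04, 1.08 and 1.09 in U87MG. Only in U251TR was the mean X-linked member below the mean autosomal core member among these 12 libraries. RPS4X alone lay below that autosomal mean in every line, with 863 FPKM in U251MG, 570 in U87TR and 643 in U87MG. Among the 79 members the 4 genes held places 1 to 4 under all 24 settings of the fit, and their changes ranged from -1.83 to -0.83. Many of those settings could hardly move this order: fits without a U87 library, other filters, the replicate block and scaling by a common factor per library. Other genes on the X chromosome were also lower in U251TR, less so: of 491 tested, 44.6% fell and 19.8% rose, with a median of -0.21, the lowest of any chromosome. Of these 491 genes, 6.52% changed as far down as RPS4X or further. The part of the chromosome's own shift in the fall of the 4 members was not tested.

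**Figure D2:**
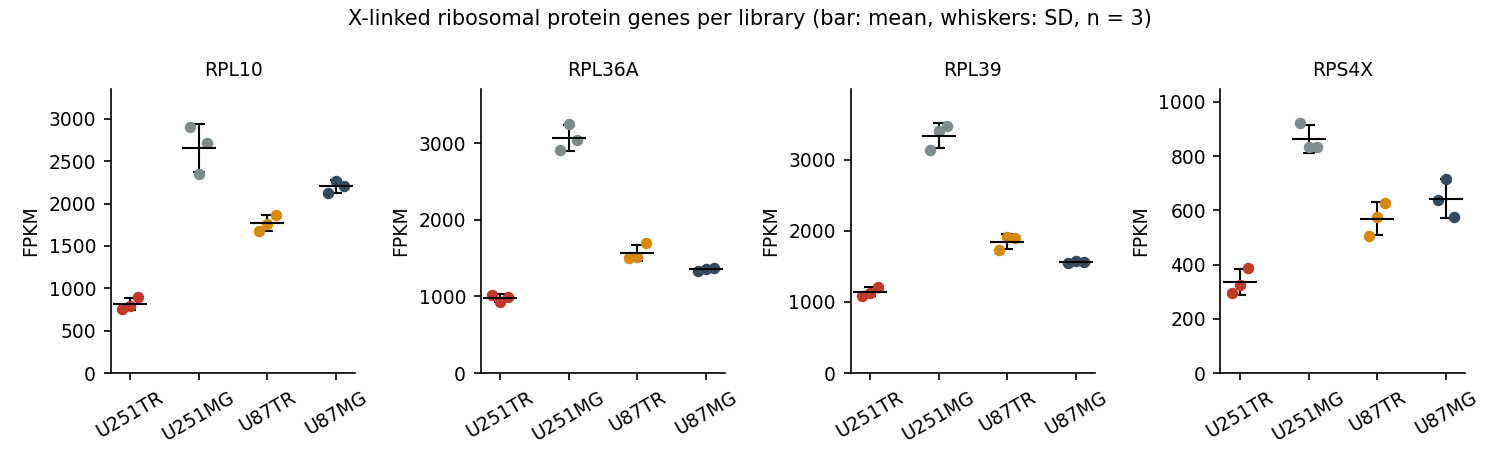
FPKM (vertical axes, from 0) of the X-linked members RPL10, RPL36A, RPL39 and RPS4X in each library of U251TR, U251MG, U87TR and U87MG; points are libraries, bars the mean of 3 and whiskers the SD. Each gene was lowest in the 3 U251TR libraries and highest in U251MG, with both U87 lines between, as for RPL39 with 1089 to 1215 FPKM in U251TR and 3144 to 3472 in U251MG.

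Another 3 members, all autosomal, fell at least 2-fold in U251TR. With the X-linked genes, 7 members (8.43%) were lower at 2-fold or more, against 4.4% of all tested genes. No member was higher at that size, against 9.17% of all tested genes. RPS7, a small-subunit protein, had 451, 476 and 488 FPKM in U251TR, against 1105, 1135 and 1122 in U251MG (log2 fold change -1.25, SE 0.07, adjusted p = 2.77e-08). RPL24 and RPL36, large-subunit proteins named here after their values were seen, fell by 1.13 (SE 0.08) and 1.01 (SE 0.10) on the log2 scale. RPL24 averaged 569 ± 37.2 FPKM in U251TR and 1243 ± 22.9 in U251MG (SD, n = 3 each). The remaining 60 falls were smaller than 2-fold.

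The members with well-known roles outside or at the edge of the ribosome moved unevenly in U251TR. RPSA, which also serves as a laminin receptor, had 1084, 1180 and 1229 FPKM in U251TR, against 1963, 2142 and 1947 in U251MG (log2 fold change -0.79, SE 0.08, adjusted p = 7.33e-06). RPL3, which lies at the catalytic centre of the ribosome, averaged 854 ± 57.6 FPKM in U251TR and 1399 ± 89.8 in U251MG (SD, n = 3 each; -0.71, SE 0.08, adjusted p = 1.66e-05). RPL5 fell by 0.56 (SE 0.08, adjusted p = 9.52e-05) and its partner in MDM2 binding, RPL11, by 0.33 (SE 0.08, adjusted p = 0.00426). The direction of RPL11 turned to 0.051 with quantile normalization, and the call of RPL5 was lost after dividing by the median member (-0.022, adjusted p = 0.825). RPS6, the substrate of S6 kinase that is used as a readout of mTORC1 activity, did not pass, with 1656, 1714 and 1841 FPKM in U251TR, against 1554, 1808 and 1664 in U251MG (0.05, SE 0.09, adjusted p = 0.626). The libraries of RPS6 overlapped. RPS6 passed upward with quantile normalization (0.55, adjusted p = 1.73e-05) and after dividing by the median member (0.59, adjusted p = 2.31e-06). RPS19, whose mutation causes Diamond-Blackfan anaemia (-0.16, SE 0.08, adjusted p = 0.106), and RPS27A, made as a fusion with ubiquitin (-0.13, SE 0.08, adjusted p = 0.217), did not pass either. With median-of-ratios factors both were lower, RPS19 at -0.29 (adjusted p = 0.0141) and RPS27A at -0.26 (adjusted p = 0.0291). RPS19 was also lower without U251TR replicate 3 (-0.22, adjusted p = 0.0485), and RPS27A was higher with quantile normalization (0.29, adjusted p = 0.00259). After dividing by the median member both were higher, RPS19 at 0.37 (adjusted p = 7.54e-05) and RPS27A at 0.41 (adjusted p = 5.37e-05).

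Of the 3 proteins of the ribosomal stalk, where elongation factors dock, RPLP0 and RPLP2 fell and RPLP1 was not called; no difference among them was tested. RPLP0, the base of the stalk, averaged 1494 ± 52.9 FPKM in U251TR and 2322 ± 78.2 in U251MG (SD, n = 3 each) and fell by 0.64 (SE 0.06, adjusted p = 4.97e-06). RPLP2 fell by 0.39 (SE 0.10, adjusted p = 0.00765), a call that quantile normalization removed (-0.21, adjusted p = 0.0533). RPLP1 had 1232, 1353 and 1533 FPKM in U251TR, against 1243, 1107 and 1232 in U251MG, and was not called (0.20, SE 0.09, adjusted p = 0.0886). RPLP1 passed upward under 3 scalings, at 0.31 rescaled to TPM, 0.61 with quantile normalization and 0.73 after dividing by the median member, and without U251TR replicate 1 (0.27, adjusted p = 0.0333).

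The 2 rises in U251TR lost their call in some fits without a library, in 4 of 6 for RPL13 and 2 of 6 for RPS27L. RPL13, a large-subunit protein, had 1451, 1588 and 1654 FPKM in U251TR, against 1325, 1386 and 1291 in U251MG. All its U251TR libraries were higher, and it rose by 0.23 (SE 0.08, adjusted p = 0.0258). The call was lost without U251TR replicate 2 (adjusted p = 0.0762) or 3 (0.0914), without U251MG replicate 1 (0.0651) or 3 (0.0860), and with median-of-ratios factors (0.09, adjusted p = 0.359). The other rise, RPS27L, is described with the paralogs. The number of members that rose ranged from 0 to 3 when each library was left out, and was 0 without U251TR replicate 3 or U251MG replicate 1.

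The comparison of U87TR with U87MG asked the same of the second line. Here 12 members fell and 7 rose of 83 tested, where 17.2% of all tested genes fell and 10.6% rose, and the median change of the members was -0.05, as for all genes tested (-0.05). Their shares of 14.5% lower and 8.43% higher lay near those of all genes. The 3 U87TR libraries carry library codes from another number block than the other 9, and that block and resistance cannot be told apart. No member was called at 2-fold or more, where 2.73% of all tested genes were lower and 2.47% higher at that size. For 52 members (62.7%) the U87TR and U87MG libraries overlapped, against 53.4% of all tested genes. With median-of-ratios factors 7 members were lower and 11 higher, and rescaled to TPM 12 were lower and 11 higher. Without U87TR replicate 1 the number lower was 7, and without U87MG replicate 2 it was 6. The number higher was 4 without U87TR replicate 2, 3 without U87TR replicate 3 and 4 without U87MG replicate 1.

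The largest falls in U87TR were RPL17, RPS13 and RPL27A. RPL17, which lies near the mouth of the exit tunnel, had 648, 728 and 812 FPKM in U87TR, against 1302, 1302 and 1131 in U87MG (log2 fold change -0.77, SE 0.09, adjusted p = 5.03e-05). RPS13, a small-subunit protein, had 526, 586 and 662 FPKM in U87TR, against 912, 969 and 852 in U87MG (-0.63, SE 0.09, adjusted p = 0.000345). RPL27A, a large-subunit protein, had 771, 805 and 930 FPKM in U87TR, against 1179, 1260 and 1224 in U87MG (-0.55, SE 0.08, adjusted p = 0.000459). None of these libraries overlapped. RPLP2 of the stalk fell by 0.42 (SE 0.10, adjusted p = 0.00982). RPL17 lies on chromosome 18, and RPS13, RPL27A and RPLP2 on chromosome 11, a grouping made after the values were seen. Genes outside the family on these chromosomes were also lower in U87TR. On chromosome 18, 45.3% of 190 fell (median -0.26), and on chromosome 11, 40.2% of 734 fell (median -0.25), against 17.2% of all tested genes. The part of these chromosome shifts in the falls of the members was not tested.

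The largest rises in U87TR were RPS29, RPL37A, RPL37 and RPL41, all very short proteins. RPS29, a zinc-binding small-subunit protein, had 1516, 1725 and 1931 FPKM in U87TR, against 1107, 1036 and 905 in U87MG (log2 fold change 0.76, SE 0.12, adjusted p = 0.00044). RPL37A, a zinc-binding large-subunit protein, had 2522, 2779 and 3170 FPKM in U87TR, against 2078, 2007 and 1934 in U87MG (0.49, SE 0.10, adjusted p = 0.00313). Every U87TR library was above every U87MG library for both. RPL37 rose by 0.40 (SE 0.13, adjusted p = 0.0336), a call that 4 of 6 fits without a library lost.

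RPL41, the shortest of the family, had 2215, 2496 and 2724 FPKM in U87TR, against 2002, 1916 and 1931 in U87MG, and was called higher (0.34, SE 0.08, adjusted p = 0.0101). Its processed pseudogene RPL41P1 was listed at higher levels than the gene itself, with 4402, 4104 and 4452 FPKM in U87TR, against 4929, 5373 and 5007 in U87MG. Reads of such copies cannot be assigned with confidence. With the pseudogene's FPKM added, an alternative chosen after seeing the data, the change of RPL41 turned to -0.054 (adjusted p = 0.633). The direction of RPL41 in U87TR thus depends on that addition. In U251TR the same addition left RPL41 lower, at -0.79 with the copy and -0.72 without it.

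A division by coding length, also made after the values were seen, set the short members apart in U87TR. Of the 9 core members with a coding sequence under 300 nucleotides, 5 rose and none fell, with a median change of 0.34; they were RPS29, RPL37A, RPL37, RPL41, RPL39, RPS28, RPS21, RPS27 and RPL38. Of the other 68 core members 1 rose and 12 fell, with a median of -0.07. The rises of RPL37 and RPL39 were each lost in 4 of 6 fits without a library, and that of RPL41 turned with its pseudogene added. Over all tested genes 17.2% fell and 10.6% rose in U87TR, and calls outside the family were not counted by length. Among genes outside the family, the median was 0.07 for 259 short ones and -0.07 for 12436 longer ones. Spearman's rho between coding length and change over the 77 core members was -0.46 in U87TR and -0.06 in U251TR, where the short members had a median of -0.62 and the longer ones of -0.58. FPKM divides by length, so the value of a short gene depends on the fragment lengths of a library, and this was not tested.

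**Figure D3:**
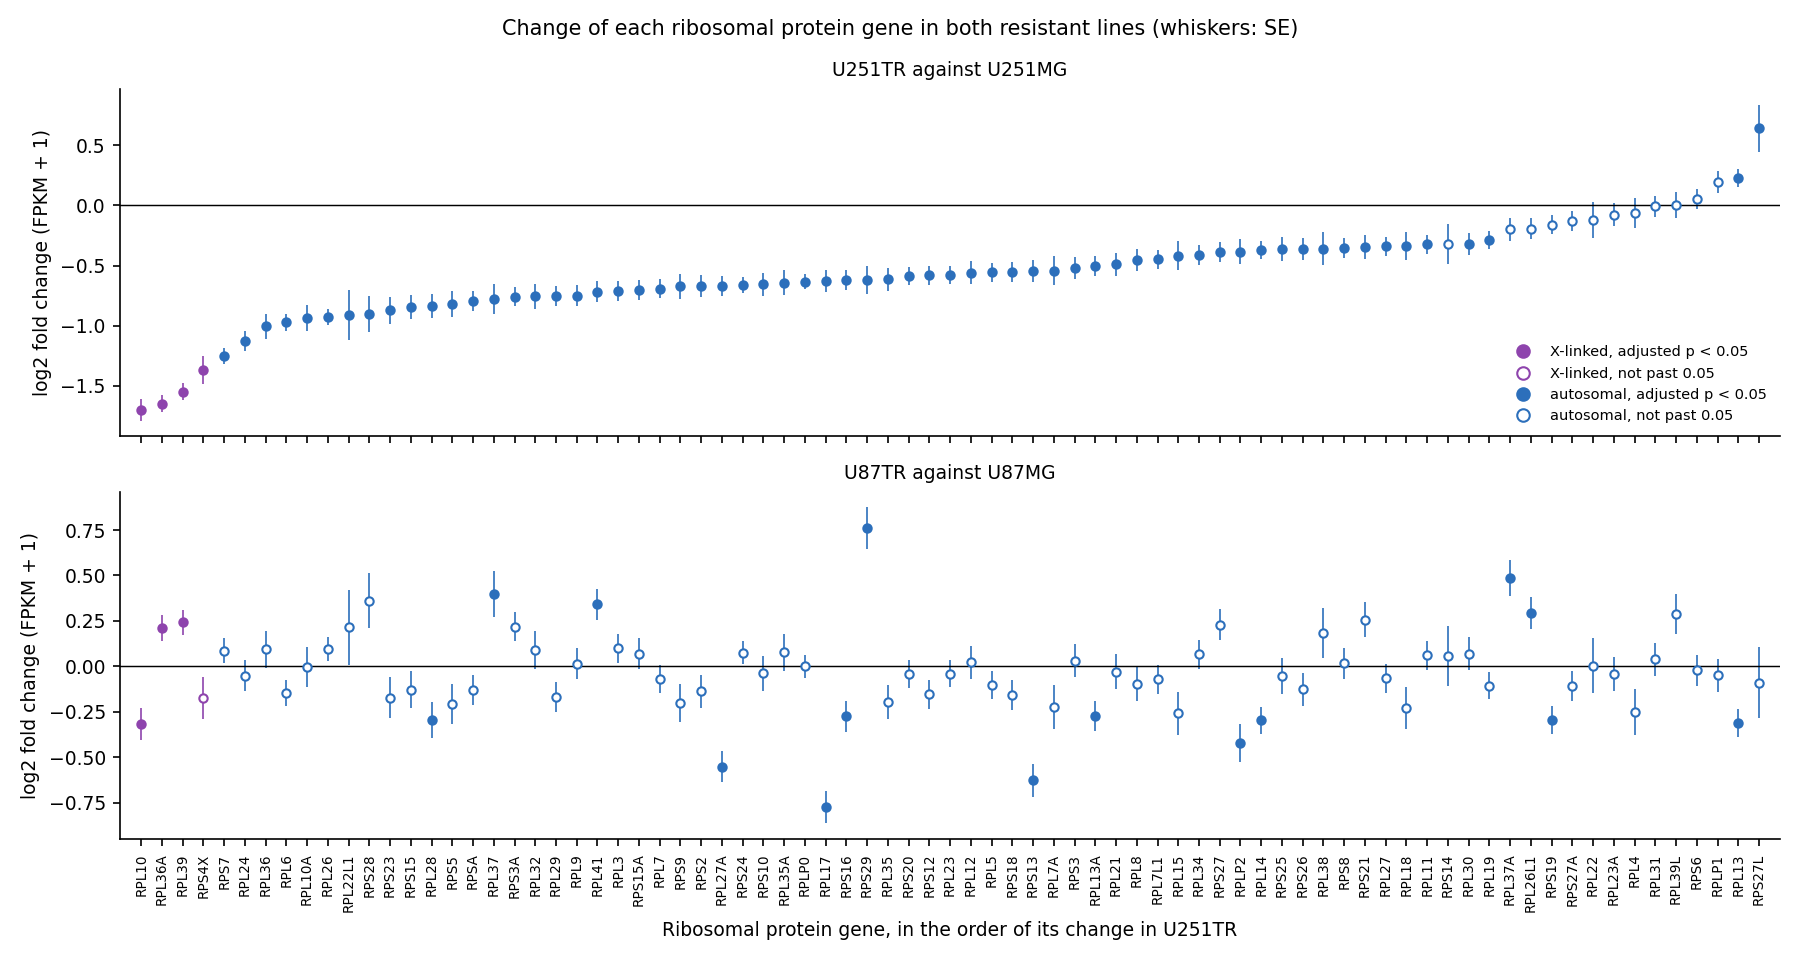
Log2 fold change of FPKM + 1 (vertical axes) of 79 members in U251TR against U251MG (upper) and U87TR against U87MG (lower), ordered by the change in U251TR; whiskers are the SE, filled points passed adjusted p under 0.05 in limma, and purple marks X-linked genes. In U251TR nearly all points lie below 0 with the 4 X-linked genes at the low end, while in U87TR points lie on both sides of 0.

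Whether the 2 lines changed differently was tested directly, as the change in U87 minus the change in U251. For 55 members this difference was positive and for 2 negative (limma, adjusted p under 0.05), where 15.4% of all tested genes were positive and 32.1% negative. The median difference was 0.49 for the members and -0.17 for all genes tested. Quantile normalization gave 29 positive and 11 negative, and dividing by the median member 21 and 19. Without U251MG replicate 2 the numbers were 55 and 3. Of the 67 members that fell in U251TR, 10 also fell in U87TR, 5 rose there and 52 were not called. Over all tested genes 17.2% fell and 10.6% rose in U87TR. The same crossing was not counted over all genes, so these numbers are not read as a trait of the family.

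RPL36A and RPL39 had the largest differences past the threshold, 1.86 (SE 0.10, adjusted p = 5.87e-08) and 1.79 (SE 0.10, adjusted p = 6.56e-08). RPL36A had 1506, 1516 and 1692 FPKM in U87TR, against 1336, 1357 and 1369 in U87MG, and RPL39 1725, 1919 and 1898 FPKM in U87TR, against 1544, 1572 and 1561 in U87MG. All U87TR libraries of both genes were slightly higher, at 0.21 (SE 0.07, adjusted p = 0.0418) for RPL36A and 0.24 (SE 0.07, adjusted p = 0.0203) for RPL39. These small rises were lost in 5 of 6 fits without a library for RPL36A and in 4 of 6 for RPL39. The differences for RPL10 (1.39, SE 0.13), RPS29 (1.38, SE 0.16) and RPS7 (1.34, SE 0.10) followed in size. RPL10 was lower in both lines, with 1682, 1763 and 1867 FPKM in U87TR, against 2124, 2270 and 2210 in U87MG (-0.32, SE 0.09, adjusted p = 0.0198). That U87TR call of RPL10 was lost in 3 of 6 fits without a library and with median-of-ratios factors (adjusted p = 0.0898).

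Members called in opposite directions were RPL36A, RPL37, RPL39, RPL41 and RPS29, lower in U251TR and higher in U87TR, and RPL13, higher in U251TR and lower in U87TR. The share of all genes called in opposite directions was not counted. The U87TR calls were lost in 5 of 6 fits without a library for RPL36A and in 4 of 6 for RPL37 and for RPL39. The U251TR call of RPL13 was lost in 4 of 6. With its pseudogene added, RPL41 turned to -0.054 in U87TR (adjusted p = 0.633). The U251TR call of RPS29 was lost with quantile normalization (-0.17, adjusted p = 0.159) and after dividing by the median member (-0.085, adjusted p = 0.401). RPL13 had 1814, 1992 and 2153 FPKM in U87TR, against 2353, 2543 and 2483 in U87MG (-0.31, SE 0.08, adjusted p = 0.0105), and its difference was -0.54 (SE 0.11, adjusted p = 0.00168). By contrast RPL17, RPS13 and RPL27A fell by like amounts in both lines, at -0.63, -0.54 and -0.67 in U251TR. Their differences of -0.15 (SE 0.13), -0.08 (SE 0.13) and 0.12 (SE 0.12) did not pass. The median of all members was -0.58 in U251TR and -0.05 in U87TR, so these falls stood out from the family in U87TR only. Dividing by the median member removed their U251TR calls, at -0.095 for RPL17 (adjusted p = 0.148), -0.012 for RPS13 (0.878) and -0.138 for RPL27A (0.0525).

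**Figure D4:**
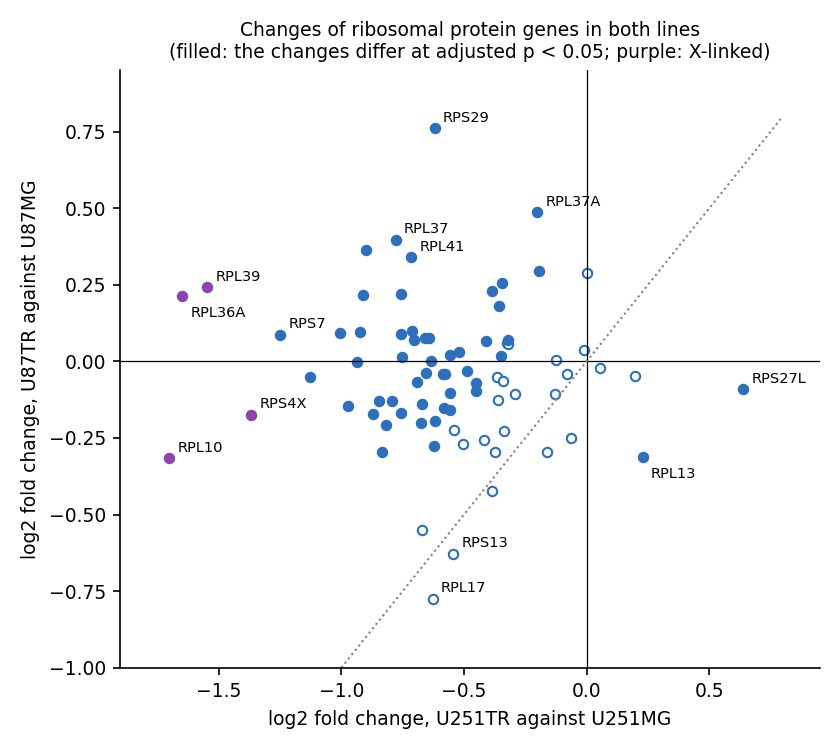
Log2 fold change of 79 members in U251TR against U251MG (horizontal) and U87TR against U87MG (vertical); filled points had a difference between the changes at adjusted p under 0.05, purple marks X-linked genes, and the dotted line marks equal changes. Most points lie left of 0 and near 0 vertically, RPL36A and RPL39 are farthest above the dotted line, and RPL17 and RPS13 lie near it.

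Set against U251MG, the other parent already had lower values for most of the family. Of 83 members 48 were lower and 12 higher in U87MG, where 40.1% of all tested genes were lower and 32.2% higher, with a median of -0.30 for members and -0.09 for all genes. Dividing by the median member gave 24 lower and 38 higher. At least 2-fold, 16 members (19.3%) were lower and 6 (7.23%) higher, against 17.2% and 14.4% of all tested genes. The comparison shares its U251MG libraries with that of U251TR, so the 2 are not independent.

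Small-subunit proteins led the lower members in U87MG. RPS18 averaged 1114 ± 83.5 FPKM in U87MG and 3357 ± 42.8 in U251MG (-1.59, SE 0.08), and RPS6 averaged 564 ± 29.4 in U87MG and 1675 ± 128 in U251MG (-1.57, SE 0.09; SD, n = 3 each). RPS10 (-1.54, SE 0.10) and the large-subunit protein RPL10A (-1.45, SE 0.11) followed. The groups of these genes did not overlap. Of the 12 members higher in U87MG, the 5 largest changes among members reported one by one were those of the paralogs RPL39L, RPS27L and RPL22L1 described below, RPS26 with 902, 862 and 750 FPKM in U87MG against 385, 404 and 371 in U251MG (1.11, SE 0.09, adjusted p = 2.77e-07), and RPL17 (1.09, SE 0.09, adjusted p = 2.92e-07). RPS6 thus differed 2.97-fold between the parents.

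Of the L-symbol members, RPL3L, a paralog of RPL3 found in heart and skeletal muscle, RPL12L3 and RPS10L were under 1 FPKM in every library. RPL39L, a paralog of RPL39 known from testis, was listed at 0 in all 6 U251TR and U251MG libraries, and had 19.5, 20.9 and 24.2 FPKM in U87TR, against 15.3, 18.2 and 18.9 in U87MG. The change of RPL39L in U87TR did not pass (0.29, SE 0.11, adjusted p = 0.0704), but did under 6 alternatives: a pseudocount of 5 (adjusted p = 0.038), TPM (0.0381), median-of-ratios factors (0.036), quantile normalization (0.0261), division by the median member (0.0494) and without U87MG replicate 3 (0.049). Its level in U87MG was 17.5 FPKM, against 1559 for RPL39.

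RPL22L1, the paralog of RPL22, had 81.8, 75.2 and 81.2 FPKM in U251TR, against 173, 98.8 and 198 in U251MG. It fell by 0.91 (SE 0.20, adjusted p = 0.00256), and by 1.21 without U251MG replicate 2, the lowest library of its group. RPL22 had 347, 359 and 379 FPKM in U251TR, against 335, 537 and 339 in U251MG, and was highest in that same U251MG library. RPL22 did not pass in U251TR (-0.12, SE 0.15, adjusted p = 0.52; 0.10 without that library). In U87 the paralog was the more abundant of the pair, with 341, 447 and 465 FPKM of RPL22L1 in U87TR, against 370, 336 and 365 in U87MG, beside RPL22 at 235 ± 23.2 in U87TR and 234 ± 8.63 in U87MG (SD, n = 3 each). RPL22L1 was higher in U87MG than in U251MG by 1.24 (SE 0.20, adjusted p = 0.000145; 0.94 without U251MG replicate 2) and RPL22 lower, at -0.75 (SE 0.15, adjusted p = 0.000713; -0.53 without that library). In neither gene did the change in U87TR pass.

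RPS27L, a paralog of RPS27 and a target of p53, had 65.0, 57.9 and 67.0 FPKM in U251TR, against 28.9, 59.2 and 38.0 in U251MG, where replicate 2 reached into the U251TR range. It rose by 0.64 (SE 0.19, adjusted p = 0.0155), and by 0.91 without that replicate. The call was lost without U251TR replicate 3 (adjusted p = 0.0511) or U251MG replicate 1 (0.062), and in the fit of the 6 U251 libraries alone (0.0647). In the U87 lines RPS27L stood at 246, 256 and 292 FPKM in U87TR, against 318, 266 and 263 in U87MG, and U87MG exceeded U251MG by 2.77 (SE 0.19, adjusted p = 7.42e-08). RPS27 itself fell in U251TR (-0.39, SE 0.09, adjusted p = 0.00237). The difference between the lines' changes of RPS27L was -0.73 (SE 0.28, adjusted p = 0.0465) and was lost in 11 of 12 fits without a library.

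RPL26L1, the paralog of RPL26, had 127, 127 and 144 FPKM in U87TR, against 113, 112 and 99.6 in U87MG, and rose by 0.29 (SE 0.09, adjusted p = 0.0239; lost without U87TR replicate 3 or U87MG replicate 3). In U251TR it did not pass (-0.19, SE 0.09, adjusted p = 0.078), but did without U251MG replicate 2 (-0.25, adjusted p = 0.0213), while RPL26 fell to 1896 ± 59.4 FPKM in U251TR, against 3603 ± 192 in U251MG (SD, n = 3 each; -0.93, SE 0.07, adjusted p = 4.04e-07). RPL7L1, a paralog of RPL7, fell in U251TR (-0.45, SE 0.08, adjusted p = 0.000517). It was also lower in U87MG, with 46.0, 42.2 and 37.0 FPKM, than in U251MG, with 109, 101 and 108 (-1.33, SE 0.08, adjusted p = 1.74e-08).

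**Figure D5:**
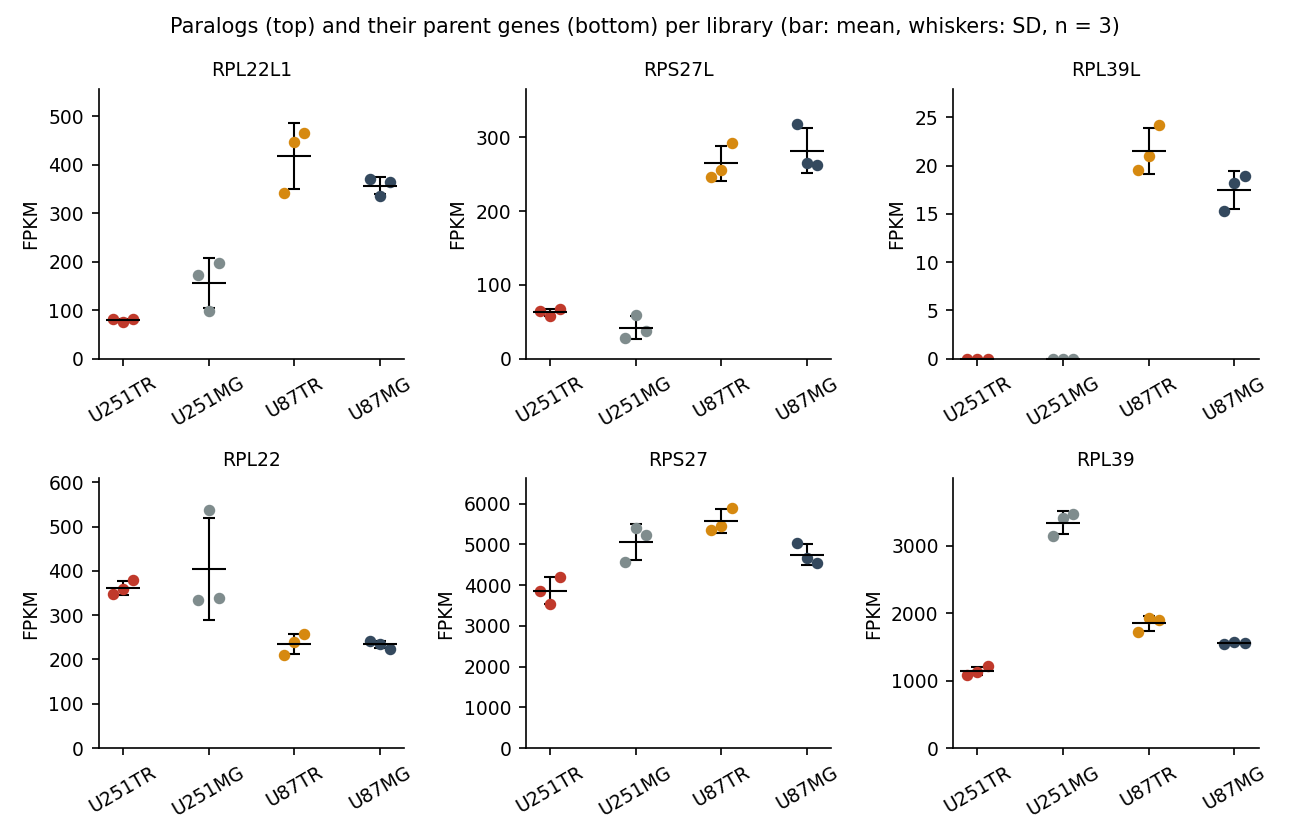
FPKM (vertical axes, from 0, different in each panel) of 3 paralogs (upper row) and the gene each resembles (lower row) in every library of U251TR, U251MG, U87TR and U87MG; points are libraries, bars the mean of 3 and whiskers the SD. RPL39L was listed at 0 in the U251 lines and at 15.3 to 24.2 FPKM in the U87 lines, and RPL22L1 and RPS27L were higher in the U87 lines than in the U251 lines.

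Genes that work with the ribosome were described from lists of their own, by counts only. Over all genes tested, 19.6% fell and 33.6% rose in U251TR, and 17.2% fell and 10.6% rose in U87TR, and the counts below stand against these shares. In U251TR, among 26 other genes with TOP messages, 21 (80.8%) fell and none rose, with a median of -0.52, close to that of the members. Those named by size of change were SNHG5 (-1.43, SE 0.37; -2.04 without U251MG replicate 2) and SNHG1 (-1.38, SE 0.26; -1.80 without it), host transcripts of small nucleolar RNAs. Members with a TOP start at the annotated base had a median of -0.56, with 36 of 43 lower. Members without one at that base had a median of -0.62, with 18 of 23 lower. Some of the latter, such as RPL27 and RPL4, have a pyrimidine run elsewhere in the window. The split thus depends on the annotated start and does not separate TOP messages from others with confidence. In U87TR 3 (11.5%) of the 26 TOP genes fell, led by FAU, whose product includes a small-subunit protein (-0.92, SE 0.08, adjusted p = 5.97e-06). FAU had 278 ± 24.4 FPKM in U87TR and 526 ± 15.3 in U87MG (SD, n = 3 each). FAU lies on chromosome 11, where 40.2% of tested genes outside the family fell in U87TR.

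Of 57 ribosome biogenesis factors, 29 (50.9%) fell and 1 (1.75%) rose in U251TR (median -0.35). In U87TR 5 (8.77%) fell and 1 rose, both shares below those of all genes (median -0.23). DKC1, the X-linked pseudouridine synthase of ribosomal RNA, averaged 44.8 ± 0.716 FPKM in U251TR and 123 ± 26.0 in U251MG (SD, n = 3 each; -1.42, SE 0.15, adjusted p = 7.54e-06). PPAN, a large-subunit assembly factor, fell by 1.33 (SE 0.09), and EFTUD1, which frees the large subunit of an anti-association factor, rose by 0.48 (SE 0.09). Of 38 initiation factors 18 (47.4%) fell and 2 (5.26%) rose in U251TR, with EIF3G (-0.82, SE 0.11) and the helicase EIF4A1 (-0.71, SE 0.07) at the low end and EIF4A3 (0.46, SE 0.10) at the high end. In U87TR 7 (18.4%) fell and 1 (2.63%) rose, led by EIF3F (-0.59, SE 0.08), which also lies on chromosome 11. Of 13 elongation factors 6 (46.2%) fell in U251TR, led by EEF2, which moves the ribosome along the message (-0.99, SE 0.10, adjusted p = 7.74e-06), and 3 (23.1%) fell in U87TR.

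Of 15 genes for RNA polymerase I, which transcribes ribosomal RNA, 5 (33.3%) fell and 1 (6.67%) rose in U251TR and 6 (40.0%) fell in U87TR. TAF1D (-1.17, SE 0.15) fell and the factor UBTF rose (0.71, SE 0.12) in U251TR. MYC had 63.5 ± 5.24 FPKM in U251TR and 174 ± 2.52 in U251MG (-1.45, SE 0.09, adjusted p = 7.25e-08), and 24.4 ± 1.75 in U87TR and 34.5 ± 2.94 in U87MG (-0.48, SE 0.09, adjusted p = 0.00159; SD, n = 3 each). Of 19 mTORC1 genes and regulators of TOP messages 8 (42.1%) fell and 3 (15.8%) rose in U251TR. EIF4EBP1, the translation repressor that mTORC1 inactivates, fell by 1.38 (SE 0.32), and by 1.84 without U251MG replicate 2, and RHEB, the activator of mTORC1, rose by 0.60 (SE 0.07). In U87TR 3 (15.8%) of the 19 fell, led by RPTOR (-1.37, SE 0.09, adjusted p = 2.64e-07), the scaffold of mTORC1, and 3 rose. In the list of genes linking the ribosome to p53, 3 of 10 rose and 3 fell in U251TR. The largest rises were CDKN1A at 1.43 (SE 0.16) and MDM2 at 0.37 (SE 0.12). The largest falls were RRS1 at -0.816 (SE 0.168) and RPF2 at -0.685 (SE 0.207). In U87TR none rose and 2 fell.

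The mitochondrial ribosomal protein genes gave a mixed picture in U251TR, with 17 (23.3%) lower and 12 (16.4%) higher of 73 and a median of -0.03. MRPL33 (-1.46, SE 0.14) and MRPL54 (-1.45, SE 0.12) fell, and MRPS9 (0.82, SE 0.12) and MRPS33 (0.77, SE 0.08) rose. In U87TR 13 (17.8%) fell and 3 (4.11%) rose. Of the 45 tested oxidative phosphorylation subunits 13 (28.9%) fell and 7 (15.6%) rose in U251TR, and 3 (6.67%) fell and 4 (8.89%) rose in U87TR. Of 13 transcripts of the mitochondrial genome 7 (53.8%) fell in U251TR, and 3 (23.1%) fell and 1 (7.69%) rose in U87TR.

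The genes outside the family whose levels were most like the median member over the 12 libraries were BTF3 (Pearson's r = 0.976), NDUFB11 (0.975), LSM7 (0.962), EMC6 (0.959), TMA16 (0.958), OSER1 (0.956), CTC-503J8.6 (0.955), DUS3L (0.953), CXorf40B (0.953) and PSMD10 (0.947), of 5667 candidates. The correlations describe 12 libraries in 4 groups and carry no p. BTF3, which binds new peptides as they leave the ribosome, had 424 ± 25.3 FPKM in U251TR, 559 ± 21.9 in U251MG, 435 ± 29.7 in U87TR and 442 ± 19.6 in U87MG (SD, n = 3 each), so it was highest in U251MG, as was the share of the members. Within the family RPSA (0.978), RPL32 (0.964) and RPS9 (0.960) followed the family median most closely, and RPS27L (-0.53), RPL13 (-0.48), RPLP1 (-0.43) and RPL39L (-0.41) ran against it.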

How the data were processed

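The deposited table held 31681 rows of gene symbols for 12 libraries. The authors deposited values taken here to be FPKM, made by normalizing for transcript length and library size; the unit was inferred from the values and stands in no header. STAR 2.5.2b and RSEM 1.2.31 appear in the submitters' processing notes, without roles or settings. The notes list hg19 and the design text hg38. Rows whose symbol had become a date (27) were left out. The table holds no counts, so depth is unknown and no counting interval is given. The 15449 genes that reached 1 FPKM in 3 libraries were fitted as log2(FPKM + 1) in limma 3.58.1 (R 4.3.3), with 1 mean per group over all 12 libraries, variance trend and robust moderation; tests were two-sided and p-values adjusted by Benjamini-Hochberg over all genes tested, with a threshold of 0.05. Fold changes are on that scale. No label gives separate cultures for the 3 replicates of a group, so p-values measure the spread between these libraries only. The fit was tested on simulated data.

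The members and the gene lists were chosen with earlier results of these data known. Genes named were fixed by role (RPL5, RPL11, RPS6, RPSA, RPLP0, RPLP1, RPLP2, RPL10, RPL39, RPL41, RPS19, RPS27A, RPL3, RPL22 and the L-symbol paralogs, as far as reported here), or were the 5 largest called rises and falls per comparison with at least 10 FPKM in the higher group, those called in opposite directions in the resistant lines, up to 2 per direction of each other list, and the 10 most like the family median among genes at 10 FPKM or more in every library. Some members are counted in totals but not reported here one by one. Other genes were named after their values were seen. Shares are a member's FPKM over the library's sum. Reads of ribosomal protein genes can be split with their many pseudogenes; in an alternative chosen after seeing the data, 349 pseudogene rows were added to their members. Other alternatives were rescaling to TPM, median-of-ratios factors, quantile normalization, division by the median member, a pseudocount of 0.1 or of 5, a low-value filter at 5 FPKM or none, a replicate block, a fit of the libraries compared, leaving out the L-symbol paralogs, and leaving out each library. Promoter windows and motifs came from RefSeq, assembly GRCh38.p14, and were not linked to coordinates of the table.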

Additional observations from a re-analysis of the deposited data

Results flagged for a closer look

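Each result here stood out because the change in U87 differed from the change in U251 in a direct test of the difference (limma, adjusted p under 0.05). The number of members whose change was higher in U87 was 55, and the number whose change was lower was 2, of 83 tested. Over all genes tested, 15.4% were higher and 32.1% lower. On the log2 scale, U87 minus U251, the differences were 1.86 for RPL36A, 1.79 for RPL39, 1.39 for RPL10, 1.38 for RPS29, 1.34 for RPS7, 1.18 for RPL37 and 1.06 for RPL41. They were -0.73 for RPS27L and -0.54 for RPL13. The RPS27L difference was lost in 11 of 12 fits without a library, and that of RPL41 was 0.73 with its pseudogene added. The shared spread of 12 libraries underlies all of these differences, and the number block of the U87TR libraries cannot be told apart from resistance in that line.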

How the results depend on the processing

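The fall of the family in U251TR kept 65 to 69 members lower when a library was left out, and 0 to 3 higher. In the other comparisons, leaving out a library gave 6 to 12 lower and 3 to 10 higher in U87TR, 49 to 59 positive and 1 to 3 negative differences between the lines, and 44 to 47 lower and 10 to 12 higher in U87MG against U251MG. Dividing by the median member, which removes a shift of the whole family by construction, gave 26 lower and 22 higher in U251TR, 12 higher in U87TR, 21 positive and 19 negative differences, and 24 lower and 38 higher in U87MG against U251MG. Quantile normalization gave 10 higher in U251TR and 29 positive and 11 negative differences. Median-of-ratios factors gave 1 higher in U251TR, 7 lower and 11 higher in U87TR, and 1 negative difference, and TPM 11 higher in U87TR. The count higher in U251TR was 1 in the fit of its libraries alone and without the L-symbol paralogs; the negative differences numbered 1 with no filter, with the replicate block and without those paralogs. Leaving mitochondrial transcripts out of the sum gave shares of 14.2% in U251TR, 19.6% in U251MG, 15.4% in U87TR and 15.2% in U87MG. Quantile normalization gave 15.0% in U251TR, 17.7% in U251MG, 13.3% in U87TR and 13.6% in U87MG. U251MG was again highest, by less, and every U251TR library then lay above every U87 library. Dividing by the median member turned these genes in U251TR: RPL11 (0.21), RPLP2 (0.15), RPS19 (0.37), RPS27A (0.41), RPL22 (0.41), RPL26L1 (0.33), RPL7L1 (0.079), RPL37A (0.33) and RPS26 (0.17), and the difference of RPL7L1 (-0.089). Quantile normalization turned RPL11 (0.051) and RPS27A (0.29), and adding pseudogenes turned RPL41 in U87TR (-0.054). Of the values of named genes under alternatives, 1500 kept their direction and side of the threshold, 61 lost the call, 21 gained one and 13 turned. The cause was not tested for the others. Replicate numbers did not pair the libraries: deviations of same-numbered libraries correlated at -0.06 to 0.12. With the replicate block 66 members were lower and 2 higher in U251TR, 12 and 8 in U87TR, and 49 and 12 in U87MG against U251MG, and 54 differences were positive. The table's lack of counts limits what can be said of RPL39L and the other low paralogs.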

Other observations

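Genes that escort new ribosomal proteins or deal with stalled ribosomes moved in both directions in U251TR (limma, adjusted p under 0.05), where 19.6% of all genes tested fell and 33.6% rose; in U87TR 17.2% fell and 10.6% rose. Of 15 dedicated chaperones and carriers of ribosomal proteins, 5 fell and 3 rose in U251TR, and 7 fell and none rose in U87TR. BCCIP, related to a yeast chaperone of a large-subunit protein, fell by 0.75 in U251TR (SE 0.11, adjusted p = 8.88e-05), AAMP rose by 0.42 (SE 0.10, adjusted p = 0.00372) and TSR2, the chaperone of RPS26, rose by 0.34 (SE 0.09, adjusted p = 0.00779). In U87TR IPO4, a nuclear importer, fell by 0.65 (SE 0.11, adjusted p = 0.000772). Of 16 rescue and quality-control genes, 2 fell and 4 rose in U251TR, and 4 fell and none rose in U87TR. ABCE1, which splits ribosomes for reuse, fell by 0.78 in U251TR (SE 0.13, adjusted p = 0.000347) and by 0.38 in U87TR (SE 0.13, adjusted p = 0.0499), while PELO, which recognises stalled ribosomes, rose by 0.52 in U251TR (SE 0.08, adjusted p = 0.000239). In the MYC network 3 of 10 genes fell and 3 rose in U251TR, with MXD3, an antagonist of MYC, at 1.63 (SE 0.34, adjusted p = 0.00165; 2.14 without U251MG replicate 2), and 2 fell in U87TR. Of 4 ribosomal proteins and relatives outside the symbol rule, GNB2L1, the small-subunit scaffold also called RACK1, fell by 0.78 (SE 0.10, adjusted p = 4.34e-05) and FAU by 0.41 (SE 0.08, adjusted p = 0.00115) in U251TR.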
